A study of Mus musculus with 8 samples.

Results

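The T cell receptor alpha and beta V segments were followed in 8 RNA-seq libraries of mouse CD4+ T cells. The members were all gene symbols beginning with Trav or Trbv that occur in every count file, which gave 163 segments, 128 Trav and 35 Trbv, of 54446 entries in the colon files and 55341 in the culture files. The 163 symbols were the same in all 8 files, and all of them were found in GENCODE M21 on build mm10. The Trav segments lie on chromosome 14 (chr14:52427928-53977678) and the Trbv segments on chromosome 6 (chr6:40891229-41558452). Each segment was expressed as its share of all Trav or of all Trbv counts of a library, so that a share says how the counts of one chain were divided and not how much of the chain was present.

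The tested genotype, called KO, was Cd4_cre Rora_fl/fl, in which a Cre recombinase driven by Cd4 can delete the floxed Rora gene in T cells, and the control, called WT, was Rora_fl/fl without Cre. Rora encodes the nuclear receptor RORα. There were 2 KO and 2 WT libraries of CD4+ T cells taken from the colon 6 weeks after naive CD4+ cells of either genotype had been given to Tcrbd-/- recipients, animals that make no T cells of their own but keep their B cells. Naive CD4+ cells activated through CD3 and CD28 for 4 days gave the other 4 libraries, called culture here, with 1 KO and 1 WT library in TGF-β+IL-6 and 1 KO and 1 WT library in IL-6+IL-1β+IL-23, conditions used to make Th17 cells. All cells received PMA and ionomycin for 2 hours before lysis. The sources used here give neither the age and strain of the mice nor whether the 2 libraries of a colon group came from separate recipients. The p-values therefore reflect how far libraries of a group lay apart, and this distance may be technical.

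A T cell builds each receptor chain by joining 1 V segment to a joining segment, with a diversity segment between them in the beta chain, and the joined exon is then spliced to a constant exon. The alpha locus of the mouse holds duplicated blocks of V segments, whose copies carry the letter d or n in their names, and nearly all beta V segments lie upstream of the constant genes, except Trbv31, which lies downstream of them in the opposite direction. Conventional CD4+ cells use many V segments, invariant NKT cells use Trav11 with a few beta segments that include Trbv13-2, and MAIT cells use Trav1. A count on a V segment is a read from that segment's exons, and it identifies neither the clone nor the partner chain.

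The sequences of the segments that carry the main differences are shown here, as the V exon of the GENCODE M21 transcript in build mm10, all on the plus strand. The beta subgroup 13 held the largest segment of the colon libraries and also the members that moved in opposite directions between colon KO and colon WT. Trbv13-2 (chr6:41121539-41121832) is given in lower case, and capitals in Trbv13-1 (chr6:41116178-41116468) and Trbv13-3 (chr6:41130292-41130585) mark bases that differ from it. Identity to Trbv13-2 over the aligned length was 87.8% for Trbv13-1 and 91.8% for Trbv13-3, so that reads over much of the exon can tell the 3 segments apart.
Trbv13-2: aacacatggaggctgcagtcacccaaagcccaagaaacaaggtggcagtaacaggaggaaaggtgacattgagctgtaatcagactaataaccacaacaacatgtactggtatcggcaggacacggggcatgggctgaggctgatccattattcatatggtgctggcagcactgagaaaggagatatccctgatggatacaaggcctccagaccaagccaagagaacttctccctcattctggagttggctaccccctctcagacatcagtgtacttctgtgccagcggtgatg
Trbv13-1: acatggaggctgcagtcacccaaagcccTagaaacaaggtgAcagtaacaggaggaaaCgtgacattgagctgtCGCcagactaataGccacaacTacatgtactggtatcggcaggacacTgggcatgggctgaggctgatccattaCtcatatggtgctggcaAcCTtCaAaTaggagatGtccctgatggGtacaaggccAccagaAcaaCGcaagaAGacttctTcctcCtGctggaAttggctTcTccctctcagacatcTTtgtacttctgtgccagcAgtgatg
Trbv13-3: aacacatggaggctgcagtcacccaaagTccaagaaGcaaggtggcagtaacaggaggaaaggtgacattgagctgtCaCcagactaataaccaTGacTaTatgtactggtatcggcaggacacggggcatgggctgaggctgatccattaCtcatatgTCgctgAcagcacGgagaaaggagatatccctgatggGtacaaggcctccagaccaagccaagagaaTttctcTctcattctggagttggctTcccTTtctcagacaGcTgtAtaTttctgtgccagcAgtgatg

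In the alpha chain, Trav13-1 (chr14:53545247-53545525) and Trav13-2 (chr14:53635121-53635399) are shown because they were the 2 largest Trav segments of the colon WT libraries and only the share of Trav13-2 differed past the threshold in colon KO. They have the same length and differ at 26 bases, marked by capitals in Trav13-2. Trav6-4 (chr14:53454487-53454784) had the largest fold change of share among the named segments, and its duplicate in another block, Trav6d-4 (chr14:52753549-52753846), differs from it at 7 bases, marked by capitals.
Trav13-1: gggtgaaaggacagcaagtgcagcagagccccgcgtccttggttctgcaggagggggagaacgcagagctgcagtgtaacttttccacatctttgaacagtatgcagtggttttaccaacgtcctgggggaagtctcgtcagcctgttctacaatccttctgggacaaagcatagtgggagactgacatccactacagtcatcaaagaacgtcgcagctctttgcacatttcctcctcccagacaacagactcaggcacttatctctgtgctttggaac
Trav13-2: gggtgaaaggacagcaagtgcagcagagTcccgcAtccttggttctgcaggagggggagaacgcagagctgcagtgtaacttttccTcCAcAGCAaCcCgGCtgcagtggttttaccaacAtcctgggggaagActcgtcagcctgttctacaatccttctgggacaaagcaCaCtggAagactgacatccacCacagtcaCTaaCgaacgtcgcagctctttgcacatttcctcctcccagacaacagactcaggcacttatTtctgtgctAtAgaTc
Trav6-4: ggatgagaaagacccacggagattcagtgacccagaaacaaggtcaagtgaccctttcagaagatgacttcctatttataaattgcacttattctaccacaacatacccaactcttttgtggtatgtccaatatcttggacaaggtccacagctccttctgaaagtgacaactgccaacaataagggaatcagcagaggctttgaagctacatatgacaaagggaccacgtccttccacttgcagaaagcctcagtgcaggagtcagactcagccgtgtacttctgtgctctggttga
Trav6d-4: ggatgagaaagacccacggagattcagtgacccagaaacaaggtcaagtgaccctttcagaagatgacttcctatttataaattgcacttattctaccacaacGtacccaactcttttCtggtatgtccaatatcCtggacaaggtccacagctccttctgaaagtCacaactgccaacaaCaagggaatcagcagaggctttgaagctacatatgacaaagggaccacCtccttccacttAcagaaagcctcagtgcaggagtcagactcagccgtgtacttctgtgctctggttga

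Library totals lay between 13176752 and 15922696 counts. Trav segments held 1834 and 1937 counts in the colon KO libraries, 2258 and 2307 in colon WT, 980 in KO and 961 in WT cells of the TGF-β+IL-6 mix, and 715 in KO and 726 in WT cells of the IL-6+IL-1β+IL-23 mix. Trbv segments held 5611 and 5919 counts in colon KO, 6187 and 6876 in colon WT, 4870 in KO and 4705 in WT cells of TGF-β+IL-6, and 3739 in KO and 3577 in WT cells of IL-6+IL-1β+IL-23. The beta chain was read more deeply than the alpha chain in every library, and small Trav shares rest on few counts. Rora itself had 1958 and 2305 counts in colon KO, against 3104 and 4067 in colon WT, with 3020 in KO against 7881 in WT cells of TGF-β+IL-6 and 906 in KO against 2307 in WT cells of IL-6+IL-1β+IL-23. Its log2 fold change was -0.94 ± 0.09 (SE) in colon and -1.38 ± 0.07 in culture, with adjusted p of 2.39e-05 and 0.000998 (edgeR quasi-likelihood F-test, Benjamini-Hochberg over all genes).

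Of the 128 Trav segments, 57 had counts in all 8 libraries, 66 had at least 10 counts over the 8 libraries together, and 47 had none in any library. Of the 35 Trbv segments, 22 had counts in all 8 libraries, 23 reached 10 counts, and 8 had none. All 8 Trbv segments without a count are annotated as pseudogenes, whereas 35 of the 47 Trav segments without a count are not. Among the 125 Trav segments whose V exons could be compared, 32 have an identical V exon elsewhere in the locus. Of these 32 segments, 29 had no count and 0 reached 10 counts, so a Trav segment at 0 cannot be read as unused. The sources used here do not say how reads that fit 2 places were treated. No Trbv segment has a V exon more than 91.8% identical to another, so this limit bears less on the beta chain.

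The colon libraries were more concentrated on a few V segments than the culture libraries, in both chains. Trbv13-2 was the largest Trbv segment in all 4 colon libraries and Trbv3 in all 4 culture libraries. The share of Trbv13-2 was 19.6% and 17.7% in colon KO and 23.2% and 21.0% in colon WT. Trbv3 took 13.7% in KO and 13.2% in WT cells of TGF-β+IL-6, and 13.5% in KO and 15.7% in WT cells of IL-6+IL-1β+IL-23. Every colon library thus had a larger top share than every culture library. The exact Clopper-Pearson intervals, which cover counting error only, overlapped slightly at the nearest pair, at 16.7% to 18.7% in colon KO replicate 2 and 14.5% to 16.9% in WT cells of IL-6+IL-1β+IL-23. The plot of the largest segment and the effective number by library shows these values.

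**Figure D1:**
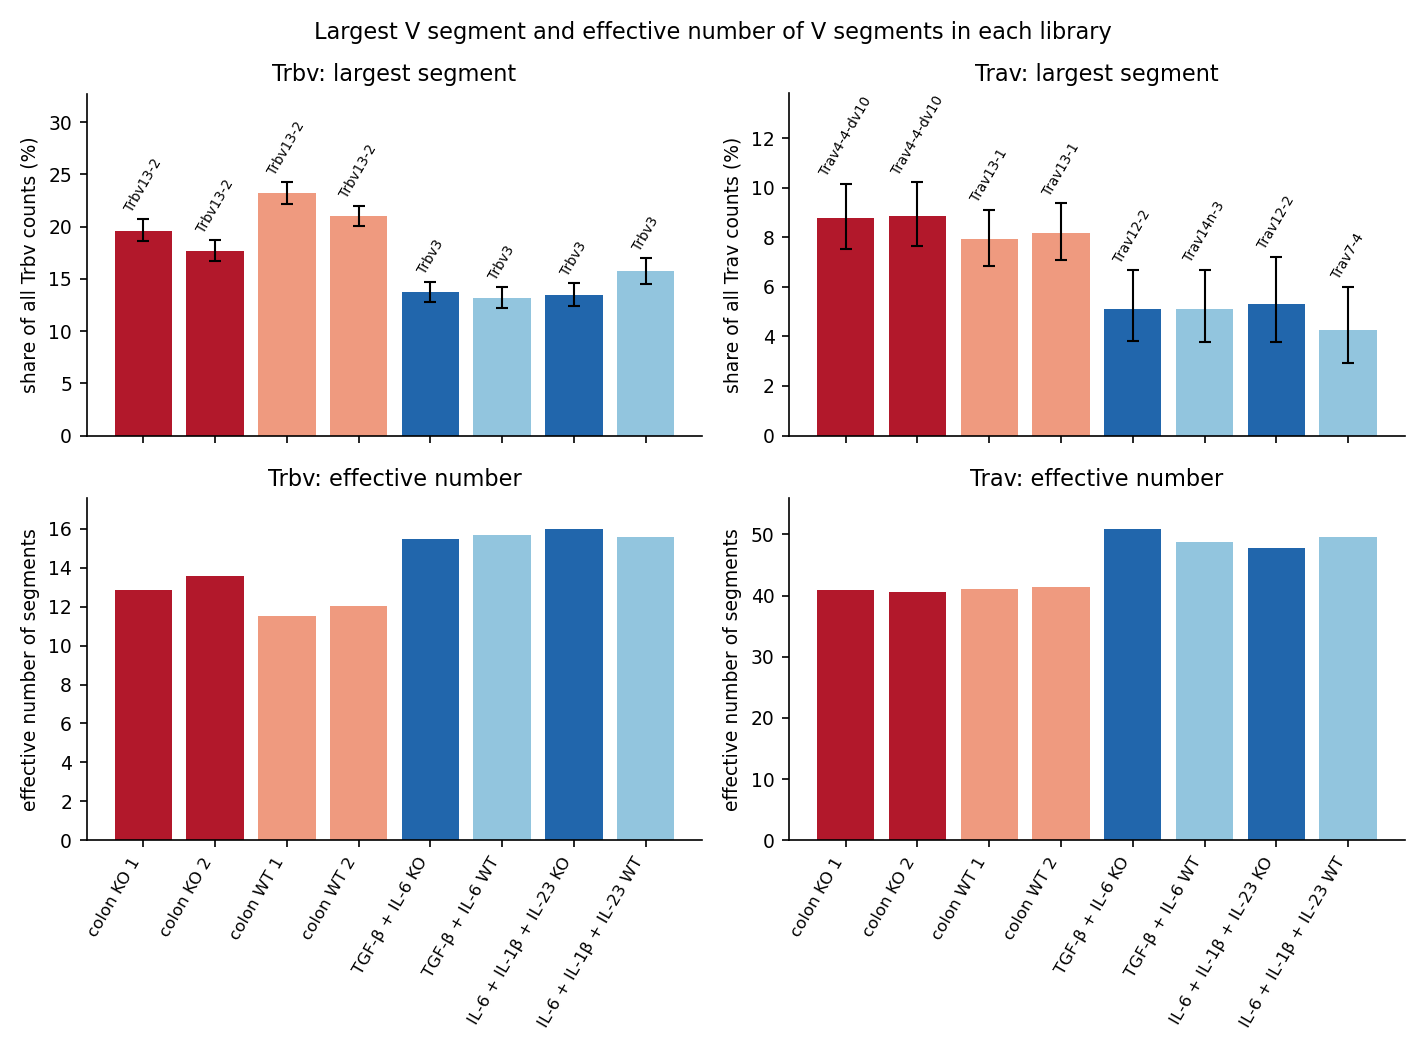
Share of the largest V segment in percent of its chain's counts (upper panels, bars with exact 95% Clopper-Pearson intervals covering counting error only, segment named above) and effective number of segments (lower panels) for Trbv (left) and Trav (right) in the 4 colon and 4 culture libraries. Colon libraries have a larger top segment and a smaller effective number than the culture libraries in both chains, with Trbv effective numbers of 11.5 to 13.6 in colon against 15.5 to 15.98 in culture.

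The effective number of segments, the exponential of the Shannon entropy of the shares, gives the number of equally used segments that would be as diverse. For Trbv it was 12.9 and 13.6 in colon KO, 11.5 and 12.02 in colon WT, and between 15.5 and 15.98 in the 4 culture libraries. Its mean was 13.2 ± 0.508 (SD, n = 2) in colon KO and 11.8 ± 0.353 (SD, n = 2) in colon WT, so the colon KO libraries were the more even and did not overlap with colon WT. The 5 largest Trbv segments together held 58.7% ± 1.63 of counts in colon KO and 67.5% ± 0.767 in colon WT (SD, n = 2 each), against 51.7% ± 2.00 in culture (SD, n = 4). No p is given for these scores over the members, which were described and not tested.

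For Trav the effective number was 41.0 and 40.6 in colon KO and 41.1 and 41.4 in colon WT, values that lay close together in both genotypes. In culture it was 50.8 in KO and 48.8 in WT cells of TGF-β+IL-6 and 47.7 in KO and 49.5 in WT cells of IL-6+IL-1β+IL-23, above every colon library. The colon libraries had more Trav counts than the culture libraries. Thinned to 715 counts each, they were expected to show 62.8 ± 0.890 segments in colon and 67.7 ± 1.26 in culture (SD, n = 4 each). The largest Trav segment was Trav4-4-dv10 in colon KO, with 8.78% and 8.88%, and Trav13-1 in colon WT, with 7.93% and 8.19%. In culture the largest was Trav12-2 in both KO libraries (5.10% and 5.31%), Trav14n-3 in WT cells of TGF-β+IL-6 (5.10%) and Trav7-4 in WT cells of IL-6+IL-1β+IL-23 (4.27%). The difference in Trav evenness was one between single segments: with the copies merged into the 23 numbered subgroups, the effective number in colon minus that in culture was 0.17, against -8.22 for single segments, and the difference in largest share was -1.84 percentage points, against 3.50 for single segments. For Trbv, merging left the direction as it was, at -3.93 against -3.19 for the effective number.

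Distance between 2 libraries was measured as the share of counts that would have to move to other segments to make them alike, beside the value that counting error alone would give. The 2 libraries of a colon genotype were nearly alike: Trav distances were 9.62% within colon KO and 10.45% within colon WT, which is 1.04 and 1.24 times the counting error. Trbv distances were 4.37% and 4.45%, between 1.51 and 1.69 times the counting error. Colon KO and colon WT libraries stood apart, by 29.6% to 30.9% in Trav and 18.3% to 19.0% in Trbv over the 4 pairs. All 4 pairs between genotypes exceeded both replicate pairs in each chain, and the smallest was 3.25 times the counting error in Trav and 6.59 times in Trbv. The plot of distances by kind of pair shows this gap between colon genotypes and colon replicates.

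**Figure D2:**
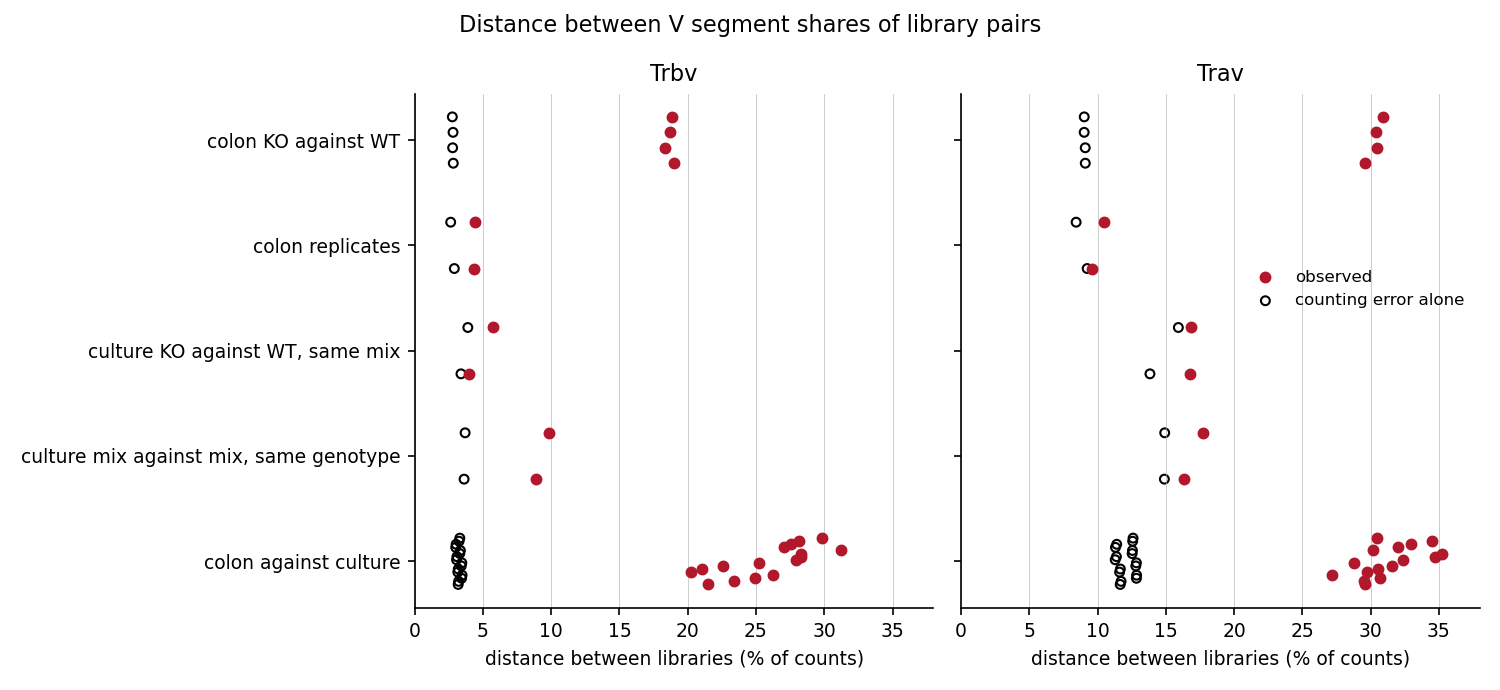
Distance between the V segment shares of 2 libraries, in percent of counts that would have to move to another segment (horizontal axis), for pairs grouped by what differs between them, in Trbv (left) and Trav (right). Filled points are observed pairs and open points what counting error alone would give; colon KO against WT lies at 18.3% to 19.0% in Trbv, against 4.37% and 4.45% for colon replicates.

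In culture the genotypes were not apart in this way. KO and WT cells of the same cytokine mix differed by 16.8% in Trav in both mixes, 1.06 and 1.21 times the counting error, and by 3.98% and 5.73% in Trbv, 1.17 and 1.47 times. The 2 cytokine mixes differed more in Trbv than the genotypes did, with 8.87% and 9.81% between mixes at the same genotype. Colon and culture libraries were 27.2% to 35.3% apart in Trav and 20.2% to 31.2% in Trbv. In Trbv the 8 pairs of colon KO with culture lay between 20.2% and 26.2% (median 23.0%) and the 8 pairs of colon WT with culture between 27.0% and 31.2% (median 28.2%). These pairs share libraries and are given as a description.

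Over the segments with enough counts, the mean chi-square between the 2 replicates was 1.49 in colon KO and 2.06 in colon WT, where counting error alone gives 1. Over all genes tested it was 5.58 in colon KO and 7.60 in colon WT. Over the genes whose counts lay in the span of those of the V segments it was 2.55 in colon KO and 3.15 in colon WT, since chi-square grows with the counts. The medians in that span were 0.958 in colon KO and 0.911 in colon WT, against 0.719 and 0.783 over the V segments, and this difference was not tested. The value of 1 holds for means only, and counting error alone gives a lower median. Whether the transferred cells of a genotype came from 1 pool is unknown here, so genotype and cell pool cannot be told apart in the colon comparison.

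The question put to the colon libraries was whether KO and WT cells differed in the use of single V segments. By share of their chain, 35 of the 70 segments tested passed the threshold of an adjusted p of 0.05 (edgeR quasi-likelihood F-test, 2 residual degrees of freedom), 20 higher and 15 lower in colon KO. Over all 13101 genes in that edgeR fit, 39.4% were called, 19.6% higher and 19.8% lower. DESeq2 called 23 of the 70 segments and 3650 of the 13101 genes. Each count is near its background, so neither is read as particular to the segments. The members called were 14 Trav and 6 Trbv segments higher and 10 Trav and 5 Trbv segments lower. The median log2 fold change was 0.03 over the 70 segments and 0.01 over all genes tested, and the log2 fold changes of called segments ran from -4.45 to 2.83 in Trav and from -2.03 to 1.51 in Trbv. By abundance, without the division by chain, 42 of 70 were called, 15 higher and 27 lower, beside 39.5% of all genes, 19.6% higher and 19.9% lower. The median log2 fold change by abundance was -0.41 over the segments and 0.01 over all genes. In a bulk sample, fewer cells that use a segment and less RNA of it per cell cannot be told apart.

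In the beta chain, members of subgroup 13, which alternate along the locus with those of subgroup 12, differed in opposite directions between colon KO and colon WT. Trbv13-1 held 7.04% and 6.94% of Trbv counts in colon KO, against 15.2% and 14.6% in colon WT, a log2 fold change of -1.09 ± 0.09 (SE, adjusted p = 7.95e-06). Trbv13-3 held 5.52% and 5.47% in colon KO, against 2.07% and 2.11% in colon WT, a log2 fold change of 1.40 ± 0.13 (adjusted p = 1.25e-05). In both segments the replicates lay within 1 percentage point of each other and the genotypes did not overlap. Of the 23 Trbv segments with at least 10 counts, 9 were higher in both colon KO libraries than in both colon WT libraries, and 8 were lower. A lack of overlap is therefore not particular to the named segments. How many genes at large lacked overlap was not counted, so these counts are not read as particular to V segments. Trbv13-2, the largest segment, held 19.6% and 17.7% in colon KO and 23.2% and 21.0% in colon WT, and its log2 fold change of -0.24 ± 0.09 missed the threshold at an adjusted p of 0.0512. That last call depends on the fit: it passed with an adjusted p of 0.0301 without WT replicate 2, of 0.0182 without KO replicate 1 and of 0.0446 with no filter on low counts. The subgroup as a whole took 32.2% and 30.1% of Trbv counts in colon KO and 40.5% and 37.7% in colon WT.

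Trbv20 (chr6:41188273-41188977) had the largest fold increase among the beta segments, with 6.58% and 6.59% in colon KO, against 2.34% and 2.28% in colon WT, a log2 fold change of 1.51 ± 0.12 (adjusted p = 5.77e-06). Trbv19 (chr6:41178375-41179048), its neighbour, had 2.39% and 2.53% in colon KO, against 0.889% and 1.06% in colon WT (log2 fold change 1.33 ± 0.17, adjusted p = 0.000159). Trbv16 (chr6:41151740-41152230) had 7.56% and 8.28% in colon KO, against 4.19% and 4.10% in colon WT (log2 fold change 0.93 ± 0.11, adjusted p = 7.4e-05). For these 3 segments the lowest colon KO share lay well above the highest colon WT share. Trbv31, the segment in inverted position (chr6:41557691-41558452, minus strand), held 11.0% and 10.5% in colon KO, against 6.32% and 6.37% in colon WT (log2 fold change 0.76 ± 0.10, adjusted p = 0.000117). Trbv29 (chr6:41271394-41271881) fell, with 0.891% and 1.18% in colon KO, against 2.46% and 2.39% in colon WT (log2 fold change -1.22 ± 0.18, adjusted p = 0.000363).

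Trbv15 and Trbv12-2 were lower by smaller amounts. Trbv15 held 4.92% and 5.34% in colon KO, against 6.19% and 7.27% in colon WT (adjusted p = 0.0199), and the call was lost without WT replicate 2 (adjusted p = 0.169) and without KO replicate 1 (adjusted p = 0.0566). Trbv12-2 held 7.06% and 7.65% in colon KO, against 9.25% and 8.68% in colon WT (adjusted p = 0.0391), and the call was lost without WT replicate 1 (adjusted p = 0.174) and without KO replicate 1 (adjusted p = 0.177). The other 2 called segments, Trbv24 (higher) and Trbv30 (lower), are named after their values were seen and held under 0.5% in every colon library. Trbv3, the second largest segment of colon KO, had 14.6% and 13.5% in colon KO and 14.1% and 15.4% in colon WT, with a log2 fold change of -0.07 ± 0.09 (adjusted p = 0.585). Its ranges overlapped, and no difference was detected. Along the locus, the 12 segments nearest the constant genes or beyond them held 20.7% and 21.2% of Trbv counts in colon KO and 13.8% and 14.3% in colon WT, with 21.9% to 23.7% in culture. The plot of Trbv shares along the locus shows the segments on either side of these differences.

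**Figure D3:**
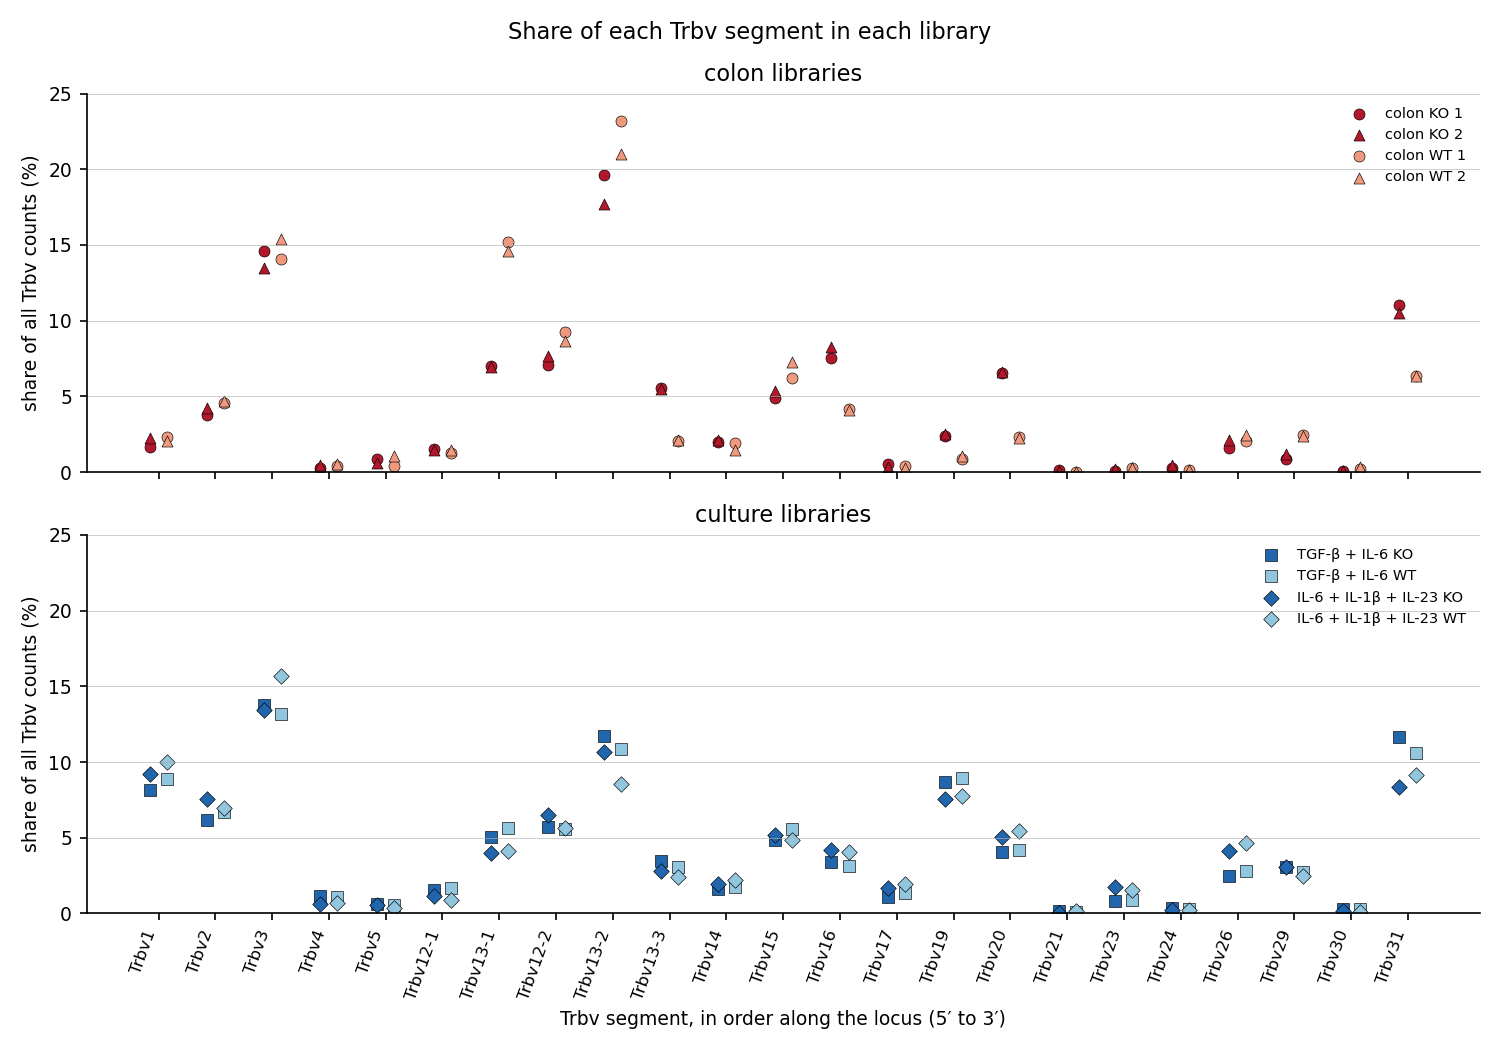
Share of each Trbv segment with at least 10 counts over the 8 libraries, in percent of all Trbv counts of a library (vertical axis), in order along the locus (horizontal axis), for the 4 colon libraries (upper panel) and the 4 culture libraries (lower panel); KO points stand left of WT points. Trbv13-1 is at 7.04% and 6.94% in colon KO against 15.2% and 14.6% in colon WT, and the culture genotypes lie close together.

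In the alpha chain, single segments differed by larger factors than in the beta chain. Trav6-4 was almost missing from colon KO: 1 and 2 counts, or 0.0545% and 0.103% of Trav counts, against 44 and 41 counts, or 1.95% and 1.78%, in colon WT. Its log2 fold change was -4.45 ± 0.50 (adjusted p = 5.64e-05). Trav12-1 had 8 and 2 counts in colon KO, 0.436% and 0.103%, against 73 and 91 counts in colon WT, 3.23% and 3.94% (log2 fold change -3.73 ± 0.40, adjusted p = 4.25e-05). In culture both segments lay between 1.22% and 2.62% in every KO and WT library, so that their colon KO shares were below those of all 6 other libraries. Fold changes against 1 to 3 counts carry a wide counting interval: for Trav6-4 the exact interval of the colon KO shares reached 0.303% and 0.372%.

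Trav13-2 held 1.74% and 1.14% in colon KO, against 7.79% and 7.50% in colon WT (log2 fold change -2.41 ± 0.21, adjusted p = 1.1e-05). Its subgroup member Trav13-1 held 6.49% and 6.14% in colon KO and 7.93% and 8.19% in colon WT (log2 fold change -0.35 ± 0.14), which missed the threshold at an adjusted p of 0.073. Of the other segments that fell, Trav6d-4 held 0.600% and 0.413% in colon KO, against 1.55% and 1.47% in colon WT, the same direction as its duplicate Trav6-4. Trav7-1 held 0.709% and 0.516% in colon KO, against 2.08% and 2.21% in colon WT (adjusted p = 0.000886). Trav7-3 held 1.25% and 1.03% in colon KO, against 2.88% and 2.95% in colon WT (adjusted p = 0.00136). The nearest other V exon to Trav7-3 is 99.3% identical, and reads over most of it cannot be told apart from those of that copy.

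The Trav segment with the largest gain in share in colon KO was Trav4-4-dv10 (chr14:53683899-53684177, V exon), one of the segments that can also be joined in delta chains, with 8.78% and 8.88% in colon KO, against 3.14% and 4.03% in colon WT (log2 fold change 1.30 ± 0.17, adjusted p = 0.000156). Trav21-dv12, another segment shared with delta chains and without a close copy, held 4.09% and 4.49% in colon KO, against 1.06% and 1.04% in colon WT (log2 fold change 2.02 ± 0.23, adjusted p = 5.81e-05). Among the other called segments shared with delta chains, Trav14d-3-dv8 was higher and Trav6-7-dv9 was lower in colon KO. Trav8-2, annotated as a pseudogene and the only Trav pseudogene with at least 10 counts, held 1.47% and 1.70% in colon KO, against 0.221% and 0.217%, 5 counts each, in colon WT (log2 fold change 2.83 ± 0.41, adjusted p = 0.000309). Trav4-4-dv10, Trav21-dv12 and Trav8-2 were higher in both colon KO libraries than in any colon WT library. Of the 66 Trav segments with at least 10 counts, 25 were higher in this way and 23 lower. Such a gap between 2 and 2 libraries is therefore not particular to the named segments. It was not counted over all genes, so it is not read as particular to V segments either. Trav8d-2 held 1.15% and 1.55% in colon KO, against 0.354% and 0.303% in colon WT (adjusted p = 0.00232), and Trav14-3 held 2.07% and 2.32%, against 0.576% and 0.650% (adjusted p = 0.000683). Trav16 held 1.69% and 1.55% in colon KO, against 0.531% and 0.477% in colon WT (adjusted p = 0.00251). Trav10n held 0.927% and 1.34%, against 0.354% and 0.347% (adjusted p = 0.00815), and this call was lost without KO replicate 2 (adjusted p = 0.105). The plot of the called Trav segments shows their shares in culture beside these.

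**Figure D4:**
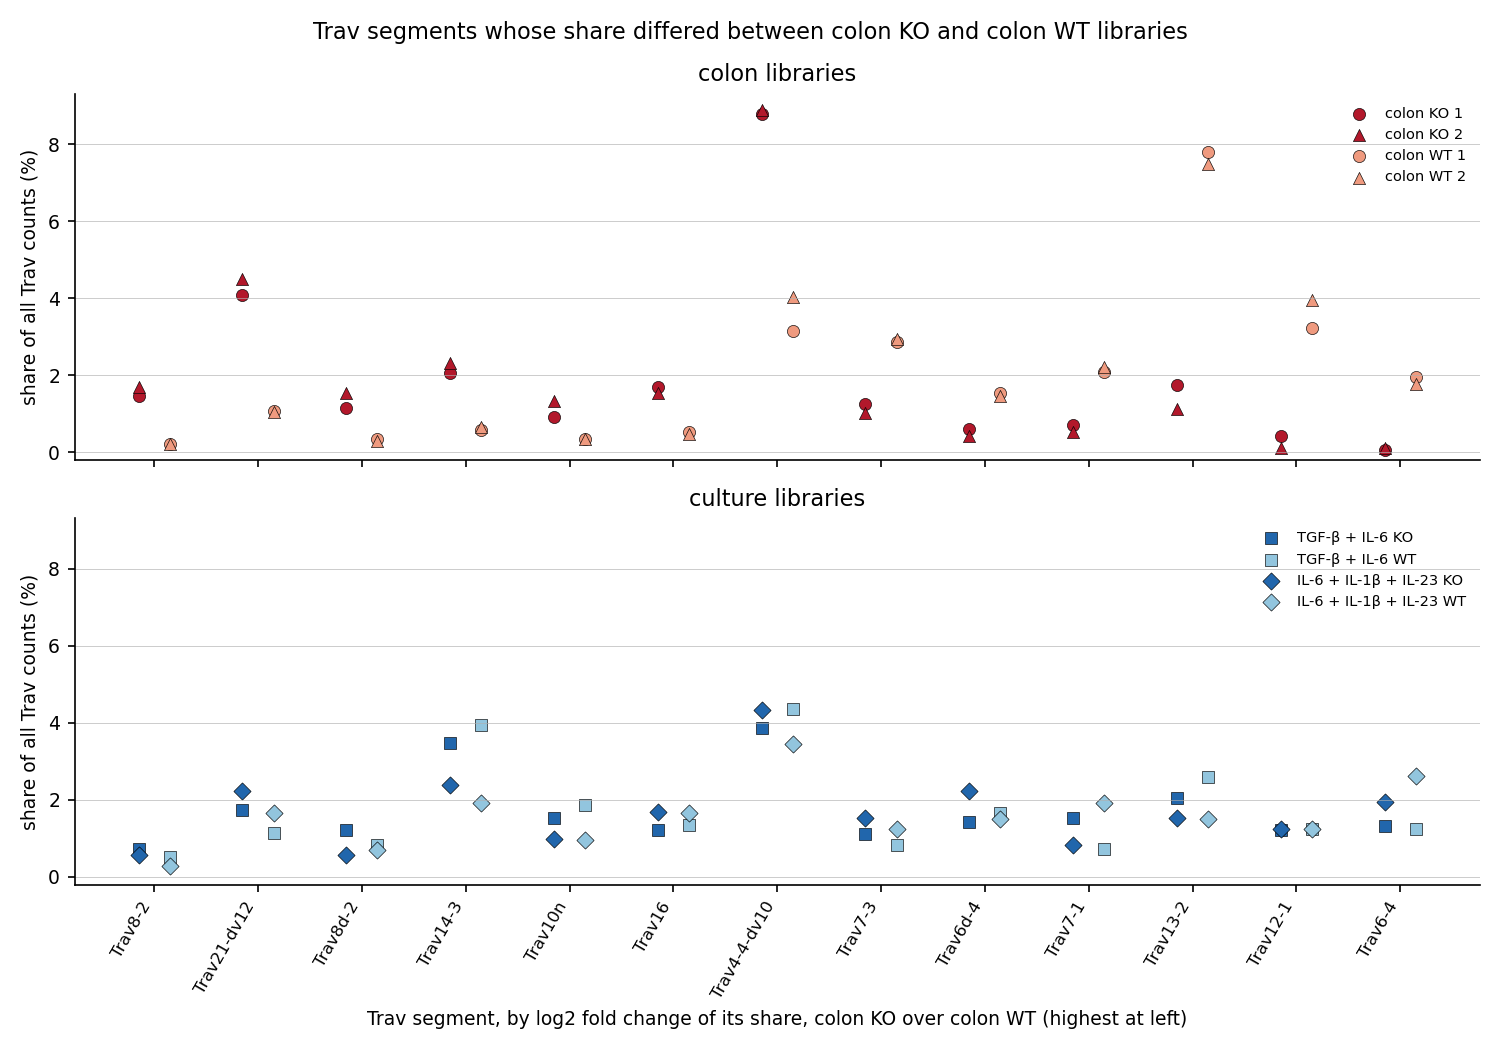
Share of Trav counts in percent (vertical axis) of the named Trav segments whose share passed the threshold between colon KO and colon WT, ordered by fold change (horizontal axis), in the 4 colon libraries (upper panel) and the 4 culture libraries (lower panel); KO points stand left of WT points. Trav4-4-dv10 is at 8.78% and 8.88% in colon KO against 3.14% and 4.03% in colon WT, and Trav13-2 at 1.74% and 1.14% against 7.79% and 7.50%.

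Summed over copies, whole alpha subgroups differed between the colon genotypes as well. The sums do not depend on how counted reads were divided among copies of 1 subgroup. Any reads left uncounted because they fit several copies would be missing from the sums too. The 9 segments of subgroup 4 held 14.2% and 13.4% of Trav counts in colon KO, against 5.58% and 5.98% in colon WT, with 6.15% to 8.12% in culture. The 12 segments of subgroup 13 held 9.92% and 9.34% in colon KO, against 17.5% and 17.1% in colon WT, with 6.63% to 8.43% in culture. The 15 segments of subgroup 6 held 5.83% and 6.61% in colon KO, against 12.3% and 10.8% in colon WT, with 9.99% to 11.3% in culture. For subgroups 4 and 13 one colon genotype lay near the culture libraries and the other away from them: colon KO was away in subgroup 4 and colon WT in subgroup 13. The 9 segments of subgroup 14 held 12.5% and 13.1% in colon KO, against 7.75% and 7.28% in colon WT, and 16.2% to 19.8% in culture, so that both colon genotypes lay below culture. These subgroup sums are descriptions and were not tested.

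The same genotype comparison in culture gave no called segment. By share, 0 of 55 segments passed the threshold, beside 0.0143% of all 13966 genes tested (edgeR quasi-likelihood F-test, 1 residual degree of freedom, the mixes serving as repeats). At an unadjusted p under 0.05 there were 2, Trav19 and Trav4-3, beside 483 of the 13966 genes, so the 2 are not read as particular to the segments. DESeq2 called 0 segments and had 0 at an unadjusted p under 0.05, beside 103 genes. By abundance 0 of 55 passed, with 3 at an unadjusted p under 0.05, beside 487 of all genes, and 0 by DESeq2. Trav19 held 3.78% in KO and 1.98% in WT cells of TGF-β+IL-6, and 3.78% in KO and 1.93% in WT cells of IL-6+IL-1β+IL-23, a log2 fold change of 0.94 ± 0.30 with an unadjusted p of 0.0154. Trav4-3 held 1.63% in KO and 3.23% in WT cells of TGF-β+IL-6, and 1.26% in KO and 2.20% in WT cells of IL-6+IL-1β+IL-23 (log2 fold change -0.91 ± 0.34, unadjusted p = 0.0306). Neither passed after adjustment. Both differences had the same direction in the 2 mixes, and the counts behind them were 9 to 37 a library.

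For the beta segments the culture data were deeper, and the fitted changes were small. Trbv13-1 had a log2 fold change of -0.11 ± 0.12 in culture, Trbv13-3 of 0.20 ± 0.15, Trbv20 of -0.06 ± 0.12, Trbv19 of -0.04 ± 0.09 and Trbv31 of 0.02 ± 0.10. Trbv13-2 held 11.7% in KO and 10.9% in WT cells of TGF-β+IL-6, and 10.7% in KO and 8.58% in WT cells of IL-6+IL-1β+IL-23, a log2 fold change of 0.20 ± 0.10. The genotype effect in colon minus that in culture was tested in the fit of all 8 libraries. It passed the threshold for 22 of 65 segments by share, 12 higher and 10 lower, beside 19.6% of all genes. Among them were Trbv20 (difference 1.57 ± 0.17 on the log2 scale, adjusted p = 0.000105) and Trbv13-1 (difference -0.98 ± 0.15, adjusted p = 0.000890). The scatter plots of shares set the colon genotypes, the colon WT replicates and the culture genotypes side by side.

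**Figure D5:**
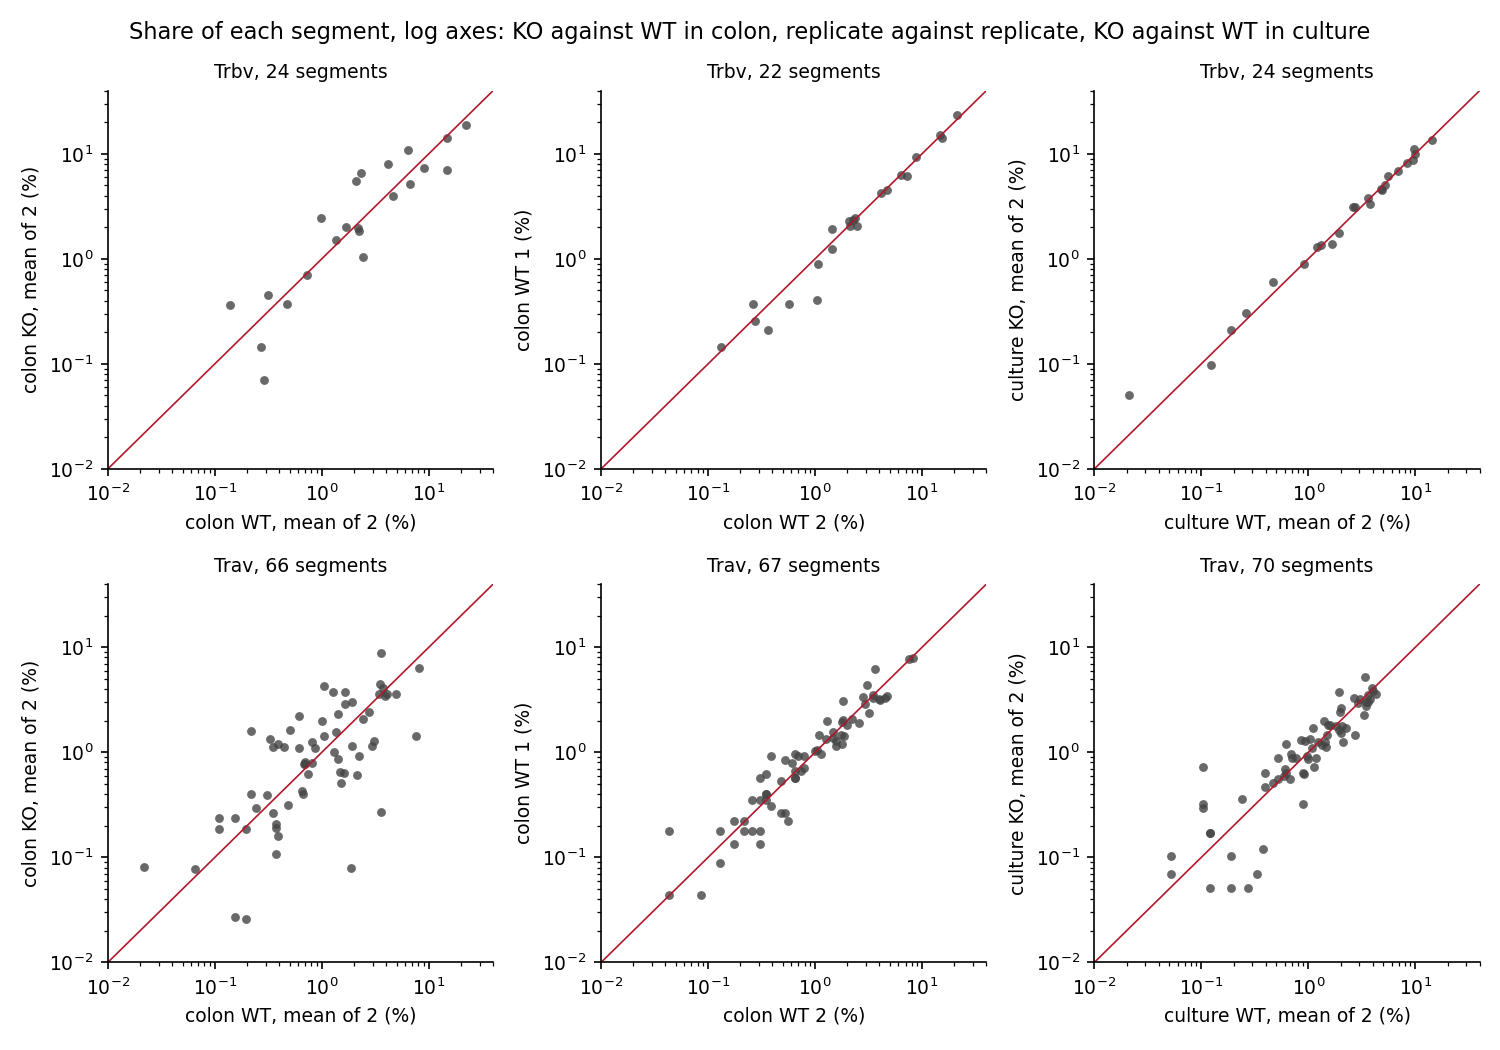
Share of each segment in percent of its chain's counts on logarithmic axes, for Trbv (upper row) and Trav (lower row): colon KO against colon WT (left, means of 2 libraries), the 2 colon WT replicates (middle) and culture KO against culture WT (right, means of 2 libraries). Points are segments with counts on both axes and the line marks equal shares; the spread about the line is wider for colon KO against WT than in the other panels, with Trav6-4 at 0.0545% and 0.103% in colon KO against 1.95% and 1.78% in colon WT.

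Colon and culture libraries differ in tissue, in time and in the gene list of their count files, so these cannot be told apart. By share, 41 of 65 segments passed the threshold between colon and culture, 17 higher and 24 lower in colon, beside 83.4% of all 13238 genes called in that fit, 41.3% higher and 42.0% lower. The segments were called less often than genes at large, and the difference between these shares was not tested. DESeq2 called 26 segments, beside 10171 of the 13238 genes. A fit with terms for source and genotype only called 25 segments, beside 7442 genes. By abundance 55 of 65 passed, 51 higher and 4 lower in colon, beside 83.5% of all genes, 41.6% higher and 41.9% lower. All Trav segments together made up 133 and 134 CPM in colon KO, 171 and 154 CPM in colon WT, and 46.6 to 61.5 CPM in culture, with CPM taken over the library total. Relative to the constant gene the difference was smaller: there were 10.34 to 12.04 Trav counts per 100 Trac counts in colon and 8.09 to 9.14 in culture. Trbv counts per 100 counts of Trbc1 and Trbc2 ran the other way, at 39.4 and 37.3 in colon KO and 40.1 and 43.8 in colon WT, against 42.7 to 52.8 in culture.

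Trbv13-1 and Trbv13-2 were higher in colon. Trbv13-1 held 7.04% and 6.94% in colon KO and 15.2% and 14.6% in colon WT, against 3.99% to 5.67% in culture, a log2 fold change of 1.13 ± 0.08 (adjusted p = 2.04e-09). Trbv13-2 held 17.7% to 23.2% in colon, against 8.58% to 11.7% in culture (log2 fold change 0.96 ± 0.07, adjusted p = 4.56e-09). For both segments all 4 colon libraries lay above all 4 culture libraries. This held for 3 of the 23 Trbv segments with at least 10 counts, and was not counted over all genes. Trbv12-2 (log2 fold change 0.48 ± 0.08) also passed the threshold. Trbv16 passed too (log2 fold change 0.64 ± 0.09), with 7.56% and 8.28% in colon KO and 4.19% and 4.10% in colon WT, where colon WT lay near the top of the culture range of 3.10% to 4.17%. Trbv13-3 passed at an adjusted p of 0.0425 with a log2 fold change of 0.23 ± 0.10, but its shares of 5.52% and 5.47% in colon KO and 2.07% and 2.11% in colon WT lie on both sides of the culture shares of 2.40% to 3.47%, and the call was lost whichever of the 8 libraries was left out, with adjusted p of 0.0710 to 0.127.

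Trbv19, Trbv1, Trbv17 and Trbv23 were lower in colon, with the largest decreases among the beta segments. Trbv19 held 2.39% and 2.53% in colon KO and 0.889% and 1.06% in colon WT, against 7.57% to 8.97% in culture (log2 fold change -2.40 ± 0.10, adjusted p = 6.19e-12). Trbv1 held 1.66% and 2.25% in colon KO and 2.30% and 2.07% in colon WT, against 8.17% to 10.01% in culture (log2 fold change -2.13 ± 0.10, adjusted p = 4.05e-11). Trbv17 held 0.262% to 0.552% in colon, against 1.07% to 1.96% in culture, and Trbv23 held 0.0891% to 0.276%, against 0.821% to 1.77%. In these 4 segments every colon library lay below every culture library. That held for 8 of the 23 Trbv segments with at least 10 counts, and was not counted over all genes. Trbv3 showed no detected difference between the sources, with 13.5% to 15.4% in colon and 13.2% to 15.7% in culture (log2 fold change 0.04 ± 0.07, adjusted p = 0.604).

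Among Trav segments, Trav2, Trav1, Trav13-1 and Trav10 were higher in colon. Trav2 held 2.999% and 3.92% in colon KO and 3.32% and 4.46% in colon WT, against 0.839% to 1.24% in culture (log2 fold change 1.83 ± 0.25, adjusted p = 6.42e-06). Trav13-1 held 6.14% to 8.19% in colon, against 1.94% to 3.64% in culture (log2 fold change 1.21 ± 0.17, adjusted p = 7.73e-06). Trav2 has no close copy, so the division of reads among copies bears little on it. Trav14-1 was lower, with 1.20% and 1.03% in colon KO and 0.576% and 0.303% in colon WT, against 2.24% to 4.20% in culture (log2 fold change -2.29 ± 0.28, adjusted p = 1.95e-06). Trav14-2 of the same subgroup was also lower (log2 fold change -1.18 ± 0.20), with every colon library below every culture library. This last pattern held for 10 of the 66 Trav segments with at least 10 counts, and was not counted over all genes. Trav14-3, Trav6-4 and Trav13-2 passed in this contrast too, but in each of them 1 colon genotype carried the difference. Trav14-3 (log2 fold change -1.27 ± 0.23) was at 2.07% and 2.32% in colon KO, inside the culture range of 1.93% to 3.95%, and at 0.576% and 0.650% in colon WT. Trav6-4 was at 1.95% and 1.78% in colon WT, inside the culture range of 1.25% to 2.62%, and Trav13-2 at 1.74% and 1.14% in colon KO, near the culture range of 1.52% to 2.60%.

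The segments of unconventional T cells were looked at separately. Trav11 and its near copy Trav11d, used by invariant NKT cells, had 0 counts in all 8 libraries, and their V exons are 99.7% identical, so that most reads of either would fit both places. Trav1, used by MAIT cells and without a close copy, held 0.872% and 1.70% in colon KO, against 3.37% and 2.82% in colon WT, and 0.551% to 1.22% in culture. Its log2 fold change was -1.25 ± 0.29 (adjusted p = 0.00564) between the colon genotypes and 1.33 ± 0.32 (adjusted p = 0.00138) between colon and culture. Conventional cells use Trav1 as well, and its counts do not identify MAIT cells. Other markers listed for these cells did not pass between the colon genotypes by abundance (edgeR quasi-likelihood F-test). Klrb1c had a log2 fold change of -0.53 ± 0.36 (adjusted p = 0.271) and Slamf1 of 0.07 ± 0.08 (adjusted p = 0.544). Zbtb16 had 6 and 9 counts in colon KO, against 1 and 3 in colon WT, and was not tested.

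Other parts of the receptor were compared in the same fit. Of 8 constant, CD3 and co-receptor genes (Trac, Trbc1, Trbc2, Cd3d, Cd3e, Cd3g, Cd247 and Cd4), 0 rose and 6 fell in colon KO, with a median log2 fold change of -0.30, beside 39.5% of all genes called. Trac had a log2 fold change of -0.38 ± 0.08 (adjusted p = 0.00297), Trbc2 of -0.37 ± 0.08 (adjusted p = 0.00360) and Trbc1 of 0.02 ± 0.09 (adjusted p = 0.861). Scaling to library totals in place of TMM moved all genes up by 0.19 on the log2 scale, and then only 2 of the 8 passed, both lower, with Trac at -0.18 (adjusted p = 0.0809). In culture 0 of the 8 passed, with all 8 tested. Of 35 joining and diversity segments tested in colon, 1 rose (Traj17) and 5 fell (Traj43, Traj39, Traj22, Trbj1-1 and Trbj1-2), with log2 fold changes between -1.26 and 1.12, with 0 called by DESeq2 and 11 with no filter on low counts, and with library totals 3 rose and 0 fell.

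Of 6 genes of gamma and delta chains tested in colon, 2 rose in KO, 2 fell and 2 did not pass, with a median log2 fold change of -0.02. By abundance 19.6% of all genes were higher and 19.9% lower in colon KO. The count over 6 genes is not read as particular to them. Trdc, the delta constant gene, had 66 and 77 counts in colon KO, against 12 and 25 in colon WT (log2 fold change 1.75 ± 0.29), beside 16377 and 18738 counts of Trac in colon KO and 18754 and 20932 in colon WT. Tcrg-C4, a gamma constant gene, also rose (log2 fold change 0.94 ± 0.33). Trdv1, a delta V segment, had 14 and 13 counts in colon KO, against 40 and 57 in colon WT (log2 fold change -2.03 ± 0.30), and Tcrg-C1, another gamma constant gene, fell too (log2 fold change -1.40 ± 0.24). Cd8a, the gene of 1 CD8 chain, had 30 and 32 counts in colon KO, against 248 and 245 in colon WT. Its log2 fold change was -3.19 ± 0.18 (adjusted p = 5.34e-07), and it had 0 counts in all culture libraries. Cd8b1, the other CD8 chain, had 15 and 27 counts in colon KO and 18 and 29 in colon WT, which did not pass (log2 fold change -0.35 ± 0.36), and 51 to 152 in culture. Over all genes tested by abundance 19.6% were higher in colon KO, the background of the marker counts that follow. Summed levels of 8 B and plasma cell markers were 2081 and 2264 CPM in colon KO, against 595 and 582 CPM in colon WT, and 13.8 to 20.5 CPM in culture, and 5 of the 6 tested rose. Epithelial markers summed to 124 and 125 CPM in colon KO, against 49.6 and 46.3 CPM in colon WT, and 18.01 to 19.0 CPM in culture, and 7 of 8 tested rose. Fibroblast markers summed to 91.9 and 84.9 CPM in colon KO, against 27.2 and 21.7 CPM in colon WT, and 6 of 6 rose. In culture they summed to 2.07 in KO and 1.78 CPM in WT cells of TGF-β+IL-6, and to 411 in KO and 447 CPM in WT cells of IL-6+IL-1β+IL-23, of which Lum held 388 and 423 CPM. Markers of macrophages and dendritic cells summed to 172 and 164 CPM in colon KO, against 93.7 and 90.8 CPM in colon WT, and 3.17 to 31.0 CPM in culture, and 7 of 9 rose. None of the markers in these 4 lists was at 0 in all colon libraries, and Krt8, Col3a1, C1qa, C1qb, C1qc and Lyz2 were at 0 in all culture libraries. The part of these cells in the V segment differences was not tested.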

How the data were processed

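RNA-seq of CD4+ T cells was used in 8 libraries, 4 from colon and 4 from culture. The deposited values are whole-number read counts per gene, made by the authors from trimmed and aligned reads; the submitters' processing notes name Trim Galore, Bowtie2, featureCounts, edgeR, DESeq2 and build mm10, with no roles or versions. Strand, read type and the treatment of reads that fit several places are not given in the sources used here. Totals ranged from 13176752 to 15922696 counts, and symbols turned into dates held at most 0.269% of them.

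The members and gene lists were chosen with earlier results of these data known. Shares were counts over the chain total, and exact Clopper-Pearson intervals at 95% cover counting error only. CPM of lists were counts scaled by TMM library sizes, while chain totals in CPM used library totals. Tests used edgeR 4.0.16 (R 4.3.3, limma 3.58.1): low counts were removed with filterByExpr, TMM factors were set, and glmQLFit and glmQLFTest were run over all genes. Adjusted p (Benjamini-Hochberg) under 0.05 was called. For shares, the log of the chain total replaced the library size of each V segment as offset. Colon libraries were fitted alone, culture libraries with terms for mix and genotype, and all 8 together, joined by symbol, for colon against culture and for the difference of the genotype effects. Standard errors are the log2 fold change divided by the root of F. V exons came from GENCODE M21, aligned with Biopython 1.88. Methods were tested on simulated data. Alternatives were library totals, no filter, DESeq2 1.42.0, a replicate block, other terms, merged subgroups, pseudogenes left out, a minimum of 10 counts, an entropy correction and leaving out each library.

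Named segments were the 3 largest of each chain in each library, up to 6 per chain and direction past the threshold by fold change, with at least 0.5% in every library of the higher group, filled to 3 by smallest p where fewer passed, and Trav1, Trav11, Trav11d, Trbv13-2, Trbv31, the constant genes and Rora.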

Additional observations from a re-analysis of the deposited data

Results flagged for a closer look

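For 21 named V segments the genotype effect on the share in colon differed from that in culture, by the test of the difference in the fit of all 8 libraries (edgeR quasi-likelihood F-test, Benjamini-Hochberg over all genes). The threshold was passed by 22 of all 65 segments tested and by 19.6% of all 13238 genes. Many named segments were chosen because their share differed between the colon genotypes, and some for a small unadjusted p in culture. Both choices favour such a difference. Values are log2 fold changes, KO over WT, in colon minus those in culture. In the beta chain the difference was 1.57 for Trbv20, 1.37 for Trbv19, 1.20 for Trbv13-3, 0.85 for Trbv16 and 0.74 for Trbv31. It was -1.47 for Trbv29, -0.98 for Trbv13-1 and -0.45 for Trbv13-2. Adjusted p ran from 0.000105 for Trbv20 to 0.0351 for Trbv13-2.

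In the alpha chain the difference was 2.47 for Trav4-3, 1.93 for Trav7-6, 1.86 for Trav10n, 1.84 for Trav14-3, 1.73 for Trav16, 1.51 for Trav21-dv12 and 1.25 for Trav4-4-dv10. It was -4.22 for Trav6-4, -3.71 for Trav12-1, -2.19 for Trav13-2, -1.72 for Trav6d-4, -1.71 for Trav7-3 and -1.68 for Trav19. Adjusted p ran from 0.00130 for Trav6-4 to 0.0463 for Trav10n. Signs were opposite in the 2 settings for Trav4-3, at 1.56 in colon and -0.91 in culture. They were opposite too for Trav7-6, at 1.20 and -0.73, and for Trav19, at -0.74 and 0.94. The same held for other segments with smaller culture values, such as Trav7-3 (-1.35 and 0.37) and Trbv29 (-1.22 and 0.25). Trav4-3, Trav7-6 and Trav19 were named, at least in part, for a small unadjusted p in culture, which favours large culture values. None of them passed the threshold in culture alone, and Trav19 did not pass in colon either.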

How the results depend on the processing

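Merging segments into subgroups moved the summaries most. The top share in colon KO minus colon WT was then -3.51 points for Trav (0.77 for segments) and -7.92 for Trbv (-3.43), culture KO minus culture WT was -1.69 for Trav (0.52) and 1.19 for Trbv (-0.85), and colon minus culture was -1.84 for Trav (3.50) and 16.9 for Trbv (6.35). The effective number, colon KO minus colon WT, was 1.07 for Trav when merged and -1.10 with pseudogenes left out (-0.44 for segments). Colon minus culture it was 0.17 when merged, -7.23 with at least 10 counts and -9.60 with the Miller-Madow correction for Trav (-8.22), and -3.93 when merged for Trbv (-3.19). DESeq2 called 23 segments by share in colon KO against WT and 26 in colon against culture, and terms for source and genotype only gave 25 in colon against culture. Calls over all genes were lower in these 3 fits too, at 3650, 10171 and 7442. For these changes the cause was not tested.

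Leaving out 1 colon library gave, for colon KO minus WT, top shares of 0.64 to 0.90 (Trav) and -4.52 to -2.35 (Trbv), and effective numbers of -0.65 to -0.23 and 1.09 to 1.81. Colon minus culture, it gave 3.35 to 3.67 and 5.42 to 7.25 for top shares, and -8.34 to -8.08 and -3.55 to -2.87 for effective numbers. The numbers of segments called are not given for these fits. The segments tested and the calls over all genes varied with the library left out. No library could be left out of the culture comparison.

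The replicate numbers were not stated to pair libraries, and deviations of same-numbered libraries correlated at 0.153 over 13101 genes and -0.160 over the 70 segments. With a replicate block, 38 segments were called by share and 45 by abundance, beside 6211 and 6230 of the 13101 genes. A crossed block, chosen after seeing the data, gave 33 and 39 segments, beside 4358 and 4336 genes.

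Values that missed the threshold changed sign as follows. Trav3-3 in colon ran from -0.41 to 0.041 and Trbc1 from -0.091 to 0.12 over left-out libraries, and in colon against culture Trbv3 ran from -0.030 to 0.11 and Trav14n-3 from -0.11 to 0.21. Trav14d-3-dv8 in culture was -0.025 by DESeq2. Low counts limit the precision of Trav shares.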

Other observations

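Dntt, the gene of the enzyme that adds bases at V(D)J junctions, had 0 counts in all 4 colon libraries. It had 37 counts in KO and 39 in WT cells of TGF-β+IL-6, and 581 in KO and 502 in WT cells of IL-6+IL-1β+IL-23. Rag2, which takes part in cutting the segments for joining, had 0 counts in all 8 libraries. Its partner Rag1 had 0 counts in both colon KO libraries and 1 and 0 in colon WT, 14 in KO and 9 in WT cells of TGF-β+IL-6, and 0 in KO and 3 in WT cells of IL-6+IL-1β+IL-23.

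By position, the 43 Trav segments nearest the joining segments held 64.8% to 70.4% of Trav counts in all 8 libraries. Most of the 32 Trav segments with an identical V exon elsewhere lie outside these 43, and 29 of the 32 had no count. The sum can therefore not be read as use by position. In the beta locus, the 12 segments in the middle of the order, which include subgroup 13, held 58.2% and 57.8% in colon KO and 64.5% and 61.97% in colon WT, against 42.5% to 47.7% in culture. These sums are descriptions and were not tested.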
